A study of Mus musculus with 9 samples.

Results

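The genes described here are 2 galectins (Lgals1 and Lgals3), 4 S100 genes (S100a4, S100a6, S100a10 and S100a11), 2 annexins (Anxa1 and Anxa2), the intermediate filament gene Vim and the scaffold gene Ahnak. They were taken by gene symbol and are 10 of the 24060 genes in the table of levels. CD8 T cells of 3 transnuclear (TN) mouse lines, R7-I, R7-II and R7-III, were compared after activation. Each line was made from the nucleus of 1 CD8 T cell specific for ROP7, an antigen of Toxoplasma gondii, so each line stands for a single T cell receptor (TCR) and clone. All mice were Rag2 proficient on the BALB/c background, and all splenocyte cultures received IL-2 at 10 ng/ml and the ROP7 peptide at 10 µM overnight before live CD3+ CD8+ H-2Ld-ROP7 tetramer+ cells were sorted. By the series' description, affinity for the peptide falls from R7-I over R7-III to R7-II, and self-reactivity falls from R7-III over R7-I to R7-II. Ages of the mice are not given. Each clone has 3 libraries labelled as biological replicates, and since nothing says which came from separate mice, p-values measure only the spread between these libraries.

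Galectins are lectins that bind galactose-containing glycans, and they act both inside the cell and, after unconventional secretion, on glycoproteins of the T cell surface. S100 proteins are small EF-hand proteins that mostly dimerise and bind target proteins when calcium rises. Annexins bind acidic phospholipids of membranes in a calcium-dependent way. S100a10 and Anxa2 form a heterotetramer under the plasma membrane, to which the very large protein Ahnak binds. In T cells, several of these genes are known as markers that rise when naive cells become effector or memory cells, and most of them are also abundant in macrophages and other myeloid cells.

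Levels were read as TPM, a value corrected for transcript length, so genes can be compared with each other as well as across libraries. TPM is scaled to 1 total per library and keeps no read number, so depth is unknown here and no counting error can be set beside a value. Between 13738 and 14434 genes were above 0 in a library. Pearson's r of log2(TPM + 1) across genes was 0.9921 to 0.9967 within a clone and 0.9591 to 0.9913 between clones. Differences were tested with limma on log2(TPM + 1) over the 11330 genes with a maximum TPM above 1, and every adjusted p below is from that fit with Benjamini-Hochberg adjustment over all of them, with 0.01 as the threshold. A fold change on this scale understates the change of genes with a low TPM. All 10 genes passed the filter, but S100a4 and Anxa1 passed only through R7-II replicate 3 and S100a6 only through R7-II replicates 1 and 2. An exact two-sided permutation test of 3 against 3 libraries cannot go below p = 0.1, so single genes rest on the spread estimated by limma over all genes.

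The start regions of 4 of the genes are shown because these genes mark the extremes of the comparison. S100a11 and Ahnak exceeded 2-fold in R7-II over each of the other clones, the Anxa2 libraries increased from R7-I over R7-III to R7-II without overlap, and Lgals3 was the 1 gene of the 10 with its highest level in R7-III. Promoters from RefSeq (GRCm38.p6, 250 bases before to 50 bases after the gene's start) matched 8 of the 10 genes, all but Lgals1 and S100a10. Capitals mark matches on either strand to TGANTCA, the core of an AP-1 site, or to GGGCGG, a GC box. No AP-1 match overlaps a GC box match. S100a11 lies at chr3:93520496-93526288 and its promoter at chr3:93520246-93520545, plus strand. Anxa2 lies at chr9:69453683-69491792 and its promoter at chr9:69453433-69453732, plus strand. Ahnak lies at chr19:8989284-9076935 and its promoter at chr19:8989034-8989333, plus strand. Lgals3 lies at chr14:47373860-47386167 and its promoter at chr14:47373610-47373909, plus strand.
S100a11: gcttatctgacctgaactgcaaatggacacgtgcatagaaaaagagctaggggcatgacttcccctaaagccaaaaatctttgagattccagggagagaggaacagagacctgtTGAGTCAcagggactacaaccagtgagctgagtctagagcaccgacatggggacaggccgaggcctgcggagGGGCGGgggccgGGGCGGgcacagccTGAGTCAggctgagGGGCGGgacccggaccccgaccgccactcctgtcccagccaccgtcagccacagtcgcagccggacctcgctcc
Anxa2: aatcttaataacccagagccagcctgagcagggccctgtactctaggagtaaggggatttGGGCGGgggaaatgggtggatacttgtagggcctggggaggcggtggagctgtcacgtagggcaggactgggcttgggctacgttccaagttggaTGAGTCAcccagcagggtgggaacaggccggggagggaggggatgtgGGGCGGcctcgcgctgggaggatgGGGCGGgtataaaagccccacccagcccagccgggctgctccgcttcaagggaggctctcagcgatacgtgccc
Ahnak: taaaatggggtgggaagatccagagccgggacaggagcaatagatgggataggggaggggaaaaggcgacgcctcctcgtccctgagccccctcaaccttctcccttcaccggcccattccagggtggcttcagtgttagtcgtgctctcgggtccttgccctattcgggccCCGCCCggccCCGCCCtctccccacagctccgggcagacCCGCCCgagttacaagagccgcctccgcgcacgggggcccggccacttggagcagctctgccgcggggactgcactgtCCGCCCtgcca
Lgals3: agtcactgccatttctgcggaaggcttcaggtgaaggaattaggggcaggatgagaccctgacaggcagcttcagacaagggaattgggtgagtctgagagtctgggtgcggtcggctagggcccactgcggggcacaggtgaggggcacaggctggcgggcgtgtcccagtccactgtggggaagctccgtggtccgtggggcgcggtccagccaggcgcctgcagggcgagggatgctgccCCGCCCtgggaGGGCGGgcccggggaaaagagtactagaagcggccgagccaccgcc

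The S100a11 window held 2 AP-1 and 3 GC box matches and the Anxa2 window 1 and 3, while the Ahnak window held 4 GC boxes and the Lgals3 window 2, with no AP-1 match in either. Of the other 4 promoters (S100a4, S100a6, Anxa1 and Vim), none held a match to these motifs. TGANTCA occurs in 7.81% and GGGCGG in 35.7% of all 32851 RefSeq promoters of the same length. Of other motifs searched on both strands, the CACCC box (letters CCACCC) is in 31.5% of all promoters and was found for Anxa2, Ahnak, Vim and S100a4. The letters CCAAT are in 37.4% and were found for Vim, S100a6 and Lgals3. No match was found in the 8 promoters for CCGGAAG, the core of an ETS site (8.86% of all promoters), or for the CArG box (1.63%). The motifs were chosen after levels had been seen, and a match describes letters, not binding.

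The 10 genes covered a wide range of levels in activated CD8 T cells. In R7-II, S100a10 was the most abundant at 394 ± 14.2 TPM (mean ± SD, n = 3 libraries, here and below), followed by S100a11 at 284 ± 23.7 TPM. Anxa2 at 51.5 ± 10.1 and Lgals1 at 50.3 ± 8.25 TPM came next and did not differ beyond their spread, followed by Vim at 34.5 ± 5.95, Ahnak at 18.8 ± 3.66 and Lgals3 at 4.04 ± 1.30 TPM. S100a4, S100a6 and Anxa1 were at or below about the filter's level in most libraries. In R7-I, Anxa2 (17.0 ± 1.77 TPM), Lgals1 (15.2 ± 1.22 TPM) and Vim (14.7 ± 1.11 TPM) lay within their spreads of each other. The summed level of the 10 genes was 385, 360 and 382 TPM in the R7-I libraries, 881, 852 and 787 TPM in the R7-II libraries and 454, 457 and 392 TPM in the R7-III libraries. S100a10 and S100a11 made up most of each sum.

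**Figure D1:**
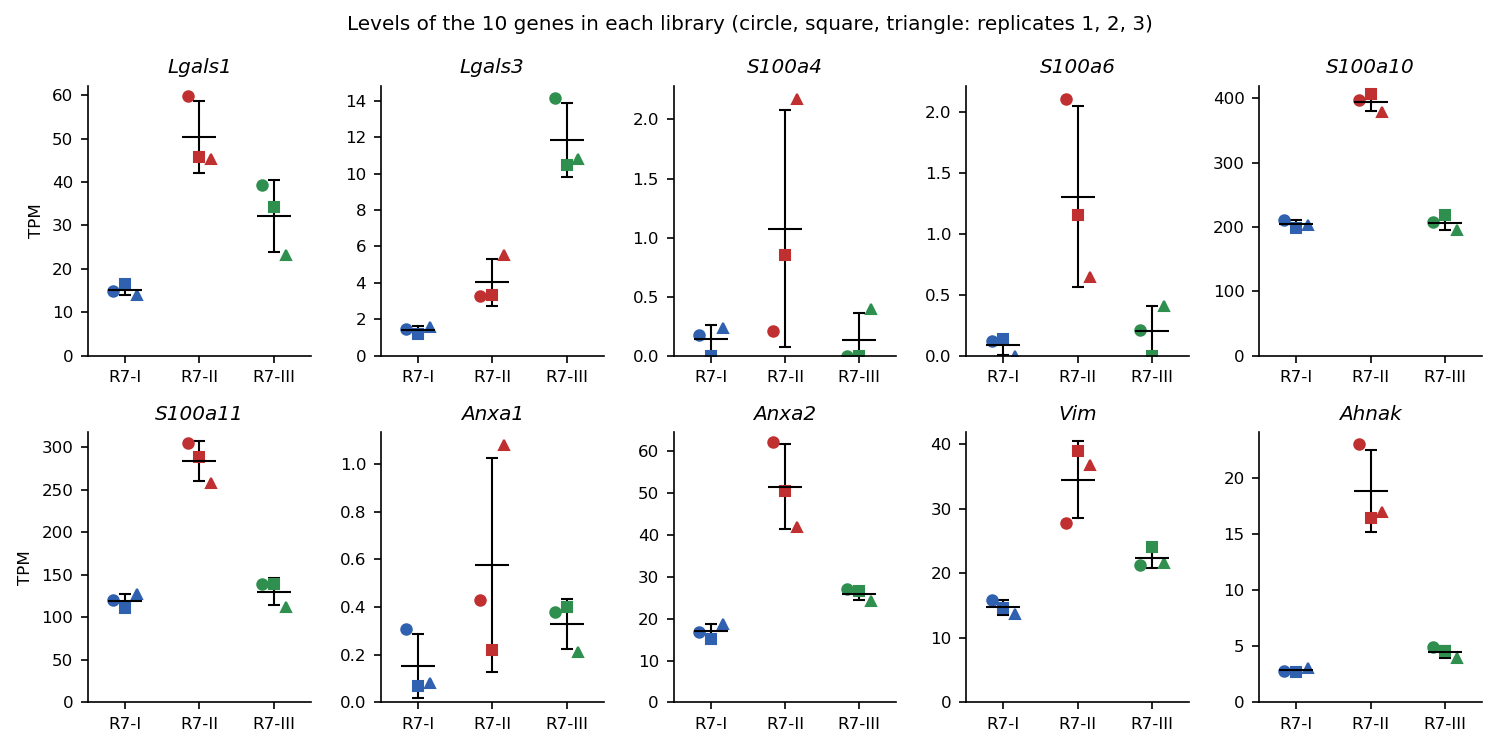
TPM of each of the 10 genes (vertical axes, linear from 0, a scale of its own per gene) in the 9 libraries, grouped by clone; circles, squares and triangles are replicates 1, 2 and 3, the long horizontal line is the mean and the bar ± 1 SD. For 7 genes all R7-II points lie above the other 6 points, as for 41.7% of all genes tested, and for Lgals3 the R7-III points, between 10.49 and 14.15 TPM, lie above all others.

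Lgals1 encodes galectin-1, a dimeric lectin that activated T cells make and that can restrain T cell responses. It was at 15.02, 16.45 and 14.03 TPM in the 3 R7-I libraries (replicates 1, 2 and 3, the order used throughout), at 59.79, 45.77 and 45.26 TPM in R7-II and at 39.28, 34.18 and 23.17 TPM in R7-III. The clones did not overlap, with R7-II highest and R7-I lowest. The log2 fold change was 1.66 for R7-II against R7-I (standard error 0.167 for each comparison, adjusted p = 9.65e-06), 0.65 for R7-II against R7-III (adjusted p = 0.00565) and 1.01 for R7-III against R7-I (adjusted p = 0.00238). In sorted bulk RNA, a larger share of cells that express a gene and more RNA per cell cannot be told apart. The step between R7-II and R7-III did not pass without R7-II replicate 1 (adjusted p = 0.0253), without R7-III replicate 2 or 3 (0.01 and 0.011), or after median-of-ratios scaling (0.0229) or quantile normalization (0.0256). It also failed with no filter, no trend, robust moderation or only the clones compared (adjusted p between 0.0138 and 0.0223), 9 of 20 alternatives in all. The step between R7-III and R7-I did not pass when R7-I replicate 1 or 3 was left out (0.0125 and 0.0115) or R7-III replicate 2 (0.0127), or with robust moderation (0.0132). Lgals1 overlaps the predicted gene Gm30368, and the reads carried no strand, so reads of the pair cannot be told apart.

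Lgals3 encodes galectin-3, the chimeric galectin that forms larger assemblies on cell surface glycans and that macrophages express at a high level. The R7-I libraries had 1.5, 1.18 and 1.61 TPM, those of R7-II 3.26, 3.32 and 5.54 TPM, and those of R7-III 14.15, 10.49 and 10.80 TPM. Every R7-III library lay above every R7-II library, and every R7-II library above every R7-I library, so the order of R7-II and R7-III was opposite to that of Lgals1. Against R7-I, the mean was 8.26 times as high in R7-III (log2 fold change 2.39, standard error 0.171, adjusted p = 1.48e-05) and 2.83 times as high in R7-II (log2 fold change 1.03, adjusted p = 3.31e-04). R7-II was below R7-III, with a log2 fold change of -1.36 (standard error 0.171, adjusted p = 4.83e-05). Ordered by the log2 fold change of R7-III against R7-I, Lgals3 was the 9th highest of the 11330 genes tested. Each of the 3 calls held in all 20 alternatives. A pseudocount of 5 lowered the difference between R7-II and R7-I most, to 0.48.

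As a description of both galectins together, with the ratio chosen after the values were seen, the level of Lgals1 over that of Lgals3 was 10.0, 13.9 and 8.71 in R7-I and 18.3, 13.8 and 8.17 in R7-II. In R7-III it was 2.78, 3.26 and 2.15. The R7-III ratios lay below the other 6, while those of R7-I and R7-II overlapped. Lgals3 lies on chromosome 14 of GRCm38, 5.04 Mb before the T cell receptor alpha locus (chr14:52427967-54224198), and each line carries the rearranged locus of its own founder cell. Of the 11 other genes tested within 1 Mb of Lgals3, 2 were called higher and 1 lower in R7-III than in R7-I, with log2 fold changes of all 11 between -0.28 and 0.56. A part of the gene's position in its level was not tested.

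S100a10 encodes the S100 protein that pairs with Anxa2 and brings membrane proteins to the cell surface, and it does not itself respond to calcium. The R7-I libraries held 211.65, 198.36 and 203.14 TPM, the R7-II libraries 397.12, 406.47 and 378.52 TPM and the R7-III libraries 207.27, 218.04 and 195.64 TPM. R7-II stood apart from both, and R7-I and R7-III overlapped. The mean was 1.93 times that of R7-I and 1.90 times that of R7-III. On the log2 scale these were 0.94 (adjusted p = 6.63e-08) and 0.93 (adjusted p = 8.74e-08), with a standard error of 0.0435, the smallest of the 10 genes. R7-III and R7-I differed by 0.02 with the same standard error (adjusted p = 0.833).

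S100a11, which encodes a partner of annexins in membrane repair, had the same order. It was at 120.93, 110.77 and 127.15 TPM in R7-I, at 304.90, 288.28 and 258.10 TPM in R7-II and at 139.65, 138.68 and 111.83 TPM in R7-III. All R7-II libraries lay above the other 6, and R7-I and R7-III overlapped. R7-II exceeded R7-I by 1.24 and R7-III by 1.12 on the log2 scale (standard error 0.0889, adjusted p = 9.55e-07 and 1.84e-06), and R7-III exceeded R7-I by 0.11 (adjusted p = 0.415). RefSeq lists a pseudogene, S100a11-ps, which could share reads with S100a11.

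S100a4 and S100a6, S100 proteins that bind cytoskeletal and signalling proteins, were near the lower end of the table. S100a6 was at 0.12, 0.14 and 0 TPM in R7-I, at 2.11, 1.16 and 0.65 TPM in R7-II and at 0.21, 0 and 0.41 TPM in R7-III. All R7-II libraries lay above the other 6, with log2 fold changes of 1.04 (adjusted p = 0.00177) and 0.90 (adjusted p = 0.00442) against R7-I and R7-III (standard error 0.222). These calls depended on the settings. Against R7-III the gene did not pass without R7-II replicate 1 or 2 (adjusted p = 0.0158 and 0.01) or without R7-III replicate 1 or 2 (0.0135 and 0.0208), nor with only the clones compared, and after quantile normalization it passed against neither clone (0.0183 and 0.0354). S100a4 was at 0.18, 0 and 0.24 TPM in R7-I, at 0.21, 0.85 and 2.17 TPM in R7-II and at 0, 0 and 0.40 TPM in R7-III. R7-II replicate 1 lay among the libraries of the other clones. The log2 fold changes of R7-II, 0.76 and 0.78, did not pass (adjusted p = 0.0422 and 0.0384, standard error 0.298). Without R7-II replicate 1 both did (adjusted p = 0.0041 and 0.0039, log2 fold changes 1.09 and 1.11).

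These genes lie in the S100 cluster of mouse chromosome 3, which holds 13 S100 genes in RefSeq, 8 of them past the filter. S100a4 (chr3:90603770-90606045) and S100a6 (chr3:90612894-90614414) are 6.85 kb apart. S100a11 and S100a10 (chr3:93555117-93564645) are 28.8 kb apart and lie 2.91 Mb further along. S100a5 lies between S100a4 and S100a6. Both genes of the distant pair were called higher in R7-II against either clone, and of the close pair S100a6 alone.

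Anxa2 encodes annexin A2, the membrane partner of S100a10. In R7-I the libraries held 16.84, 15.25 and 18.79 TPM, in R7-II 62.12, 50.55 and 41.92 TPM and in R7-III 27.16, 26.64 and 24.19 TPM. The clones did not overlap, with R7-III between the others. R7-II was higher than R7-I by a log2 fold change of 1.54 (standard error 0.122, adjusted p = 1.86e-06) and higher than R7-III by 0.94 (adjusted p = 5.99e-05). The difference between R7-III and R7-I was smaller, at 0.59 (adjusted p = 0.00781), and passed in 6 of 20 alternatives. It did not pass when any 1 of the R7-I libraries, R7-II replicate 2 or any 1 of the R7-III libraries was left out (adjusted p between 0.0108 and 0.0328). The microRNA gene Mir3109 lies within Anxa2. S100a10 stood at 12.6, 13 and 10.8 times the level of Anxa2 in R7-I, at 6.39, 8.04 and 9.03 times in R7-II and at 7.63, 8.18 and 8.09 times in R7-III, a ratio chosen after the values were seen. The R7-I libraries were the highest of the 9 in this ratio, and R7-II and R7-III overlapped.

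Anxa1 encodes annexin A1, a glucocorticoid-induced mediator of the resolution of inflammation that is abundant in neutrophils. Its libraries stood at 0.31, 0.07 and 0.08 TPM for R7-I, at 0.43, 0.22 and 1.08 TPM for R7-II and at 0.38, 0.40 and 0.21 TPM for R7-III. The 3 clones overlapped. No comparison passed (log2 fold changes 0.42, 0.21 and 0.21 in the order of the comparisons above, standard error 0.198, adjusted p = 0.0805, 0.362 and 0.509).

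Vim encodes vimentin, the intermediate filament protein of lymphocytes. In R7-I it was at 15.88, 14.61 and 13.66 TPM, in R7-II at 27.76, 38.97 and 36.82 TPM and in R7-III at 21.34, 24.00 and 21.54 TPM. Again the clones did not overlap and R7-III lay between the others. On the log2 scale R7-II exceeded R7-I by 1.16 and R7-III by 0.60, and R7-III exceeded R7-I by 0.57 (standard error 0.111, adjusted p = 6.39e-06, 7.44e-04 and 0.00589). After quantile normalization the step between R7-II and R7-III did not pass (adjusted p = 0.0136). The step between R7-III and R7-I passed in 10 of 20 alternatives and failed when any 1 library of R7-I or R7-III was left out (adjusted p between 0.0142 and 0.0279).

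Ahnak encodes a giant scaffold protein that binds S100a10 and Anxa2 under the membrane and supports calcium entry in T cells. On the log2(TPM + 1) scale it had the largest fold changes of R7-II against both other clones among the 10 genes, while the ratio of mean TPM was larger for S100a4 and S100a6, which are near 0 in the other clones. For R7-I the levels were 2.82, 2.69 and 3.07 TPM, for R7-II 23.05, 16.43 and 17.02 TPM and for R7-III 4.94, 4.58 and 3.93 TPM. The lowest R7-II library was more than 3 times the highest R7-III library, and R7-III lay above R7-I without overlap. Mean TPM in R7-II was 6.59 times that of R7-I (log2 fold change 2.35, standard error 0.123, adjusted p = 1.26e-07) and 4.20 times that of R7-III (1.84, adjusted p = 5.62e-07). By these log2 fold changes Ahnak ranked 42 and 106 of the 11330 genes tested. R7-III against R7-I gave 0.50 and did not pass (adjusted p = 0.0176), except without R7-II replicate 1 (0.00367) or in a fit of R7-I and R7-III alone (0.00609).

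**Figure D2:**
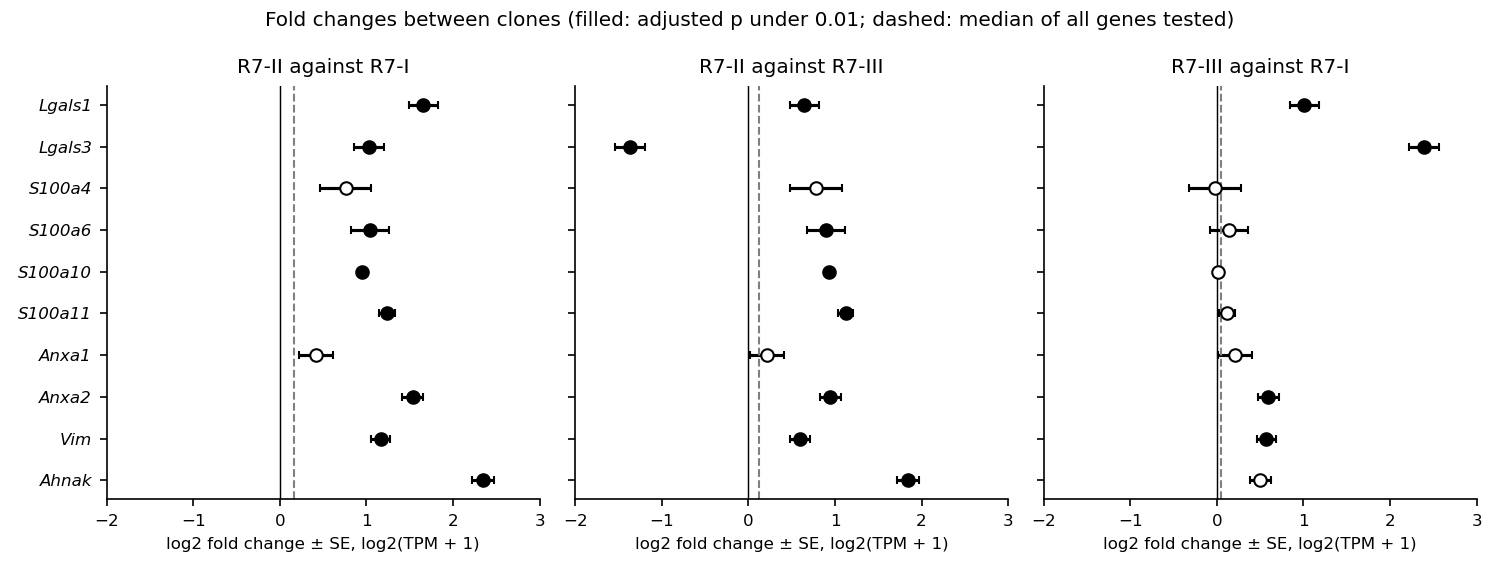
Log2 fold change ± standard error (horizontal axes, log2(TPM + 1) scale) of the 10 genes in each comparison, n = 3 libraries per clone; filled points have an adjusted p under 0.01 and the dashed line is the median of all 11330 genes tested. Ahnak lies farthest to the right in both comparisons of R7-II (2.35 and 1.84), and Lgals3 is to the left only against R7-III (-1.36).

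Over the 10 genes, 8 were called higher and 0 lower in R7-II than in R7-I, with S100a4 and Anxa1 not passing. Since S100a4, S100a6 and Anxa1 entered the test only through R7-II libraries, the counts without them are 7 of 7 genes higher than in R7-I and 6 of 7 higher than in R7-III. The background was high, since 40.6% of all genes tested were called higher and 15.5% lower in this comparison. Against R7-III, 7 were called higher in R7-II and 1, Lgals3, lower, beside 35.6% higher and 18% lower over all genes. Between R7-III and R7-I, 4 were called higher in R7-III (Lgals1, Lgals3, Anxa2 and Vim) and 0 lower, beside 6.96% and 1.45%. The median log2 fold change of the 10 genes was 1.10, 0.84 and 0.36 in these comparisons, and that of all genes tested 0.17, 0.12 and 0.04. Pairs of comparisons share the libraries of 1 clone, so they are not independent of each other.

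The genes fell into a few orders of the clones. R7-II was called higher than both other clones for 7 genes (Lgals1, S100a6, S100a10, S100a11, Anxa2, Vim and Ahnak), an outcome that 31.9% of all genes tested had. For the same 7 genes every R7-II library lay above the other 6, which was so for 41.7% of all genes tested. S100a6 is among them although it passed the filter only through R7-II, where it is high. A called step at each place from R7-I over R7-III to R7-II was found for Lgals1, Anxa2 and Vim, against 1.28% of all genes. None of the 3 kept every step after median-of-ratios scaling, where Lgals1 did not pass between R7-II and R7-III (adjusted p = 0.0229) nor Anxa2 and Vim between R7-III and R7-I (0.012 and 0.0179), or after quantile normalization (0.0256, 0.0224 and 0.0326 for the same steps). The order with R7-III above R7-II above R7-I, each step called, was found for Lgals3, 1 of 21 genes or 0.185% of those tested.

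The scaling of the libraries changed the split of higher and lower calls over all genes, and some calls of the 10 genes. With TPM as deposited, R7-II had 4604 genes called higher and 1754 lower than R7-I, and after median-of-ratios scaling 2860 higher and 3334 lower, with a median of all genes of -0.0013. Against R7-III the split went from 4038 higher and 2039 lower to 2836 and 3199, and between R7-III and R7-I from 789 and 164 to 551 and 422. Under this scaling the 10 genes gave 8 higher in R7-II relative to R7-I, with a median of 0.98. They gave 6 higher and 1 lower against R7-III, with a median of 0.76, and 2 higher between R7-III and R7-I, with a median of 0.34. With quantile normalization the medians of the 10 genes were 0.95, 0.64 and 0.26 in the 3 comparisons. None of the 10 turned its direction where it was called.

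Outside the 10 genes, the same 3 families had 30 further genes in the table, of which 16 passed the filter. Of these, 9 were higher and 0 lower in R7-II than in R7-I, with a median log2 fold change of 0.74, beside 40.6% higher, 15.5% lower and a median of 0.17 over all genes tested. Against R7-III, 10 were higher and 1 was lower, with a median of 0.62, beside 35.6%, 18% and 0.12 over all genes, and without R7-III replicate 1 or 3 the total called was 7. Lgals6, S100a8 and S100a9 of the 16 passed the filter only through R7-II, where they are high, and they enter both medians. S100a9 is among the 10 called higher against R7-III, and none of these genes was called against R7-I. With limma 0 of the 16 passed between R7-III and R7-I (2 had an unadjusted p under 0.05), although 1, Lgals9, did without R7-II replicate 3 (adjusted p = 0.00888, against 0.0618 with all libraries). The gene lower in R7-II than in R7-III was Lgalsl, a galectin-related gene (log2 fold change -0.64, adjusted p = 0.00309), which did not pass without R7-II replicate 1 or R7-III replicate 1 or 3 (adjusted p between 0.0107 and 0.0128).

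Among the other galectins, Lgals9, a tandem-repeat galectin, had mean levels of 34.9 ± 2.68, 55.9 ± 9.29 and 43.0 ± 2.19 TPM in R7-I, R7-II and R7-III. R7-II was above R7-I (log2 fold change 0.65, adjusted p = 1.70e-04). Its call against R7-III (0.36, adjusted p = 0.00822) did not hold without R7-I replicate 1, R7-II replicate 3 or any 1 R7-III library (adjusted p between 0.0131 and 0.0333). It was also lost with median-of-ratios scaling (0.23, adjusted p = 0.0822), with quantile normalization (0.24, adjusted p = 0.0982), with the replicate block (adjusted p = 0.0165), and with no filter, no trend, robust moderation or only the clones compared (adjusted p between 0.0117 and 0.0207). Lgals8, another tandem-repeat galectin, was at 7.60 ± 0.564, 17.8 ± 2.02 and 8.01 ± 0.726 TPM and rose in R7-II against both clones (1.13 and 1.06, adjusted p = 2.64e-06 and 3.99e-06). Lgals4, at 2.49 ± 0.394, 6.08 ± 1.30 and 3.28 ± 0.356 TPM, was also higher in R7-II (1.01 and 0.71, adjusted p = 1.10e-04 and 0.00126), but it is nearly identical to Lgals6 and the pair may share reads. Of the 8 galectins tested, Lgals3 alone had its highest mean in R7-III with both differences called.

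Of the S100 genes outside the 10, S100a13 was the most abundant, with 6.05 ± 1.64, 25.8 ± 2.43 and 7.83 ± 1.84 TPM in the order R7-I, R7-II and R7-III. Its log2 fold changes, 1.95 and 1.62 (adjusted p = 5.61e-06 and 2.22e-05), exceeded those of the 4 S100 genes above on the log2(TPM + 1) scale, but not in the ratio of mean TPM, which was 4.26 and 3.30 for S100a13 against 15.1 and 6.32 for S100a6. S100a13 overlaps S100a1 by 98 bases and the reads carried no strand. S100a1 itself, at 1.03 ± 0.779, 1.87 ± 0.601 and 1.23 ± 0.734 TPM, did not pass in any comparison. S100a9, a subunit of calprotectin and a neutrophil marker, had 0.34, 0.57 and 0 TPM in the R7-I libraries, 0.99, 1.01 and 4.35 TPM in those of R7-II and 0.15, 0.18 and 0.19 TPM in those of R7-III. It passed the filter only through R7-II, and most of its R7-II level came from replicate 3. Relative to R7-I it missed the threshold (adjusted p = 0.0123) except without R7-II replicate 1 or 2 (0.00768 and 0.00705) or with a pseudocount of 0.1 (0.01), and its call against R7-III (0.00719) did not hold without R7-I replicate 1 or any 1 R7-III library (adjusted p between 0.0115 and 0.0217). Nor did that call hold with either other scaling, a pseudocount of 5, no filter, no trend, robust moderation, only the clones compared or the replicate block (adjusted p between 0.0111 and 0.0274).

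The annexins outside the 10 genes that were most abundant were Anxa6, Anxa7 and Anxa11. Anxa6, a large annexin with a doubled core, had 74.6 ± 6.35, 151 ± 9.03 and 89.7 ± 5.66 TPM in R7-I, R7-II and R7-III, with log2 fold changes of R7-II of 1.01 and 0.75 (adjusted p = 6.63e-07 and 5.25e-06). Anxa7 was at 57.1 ± 0.848, 73.7 ± 3.99 and 57.4 ± 0.527 TPM (0.36 and 0.35, adjusted p = 2.31e-05 and 2.75e-05). Anxa11 was at 37.6 ± 2.33, 52.1 ± 3.06 and 36.1 ± 0.699 TPM (0.46 and 0.52, adjusted p = 3.33e-05 and 1.56e-05). Over the whole annexin family, 6 of 8 tested genes were higher in R7-II in either comparison, and Anxa1 and Anxa9 were those that did not pass. Over all genes 40.6% and 35.6% were higher. After median-of-ratios scaling 5 annexins passed against R7-III, since Anxa4 did not (adjusted p = 0.0204).

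**Figure D3:**
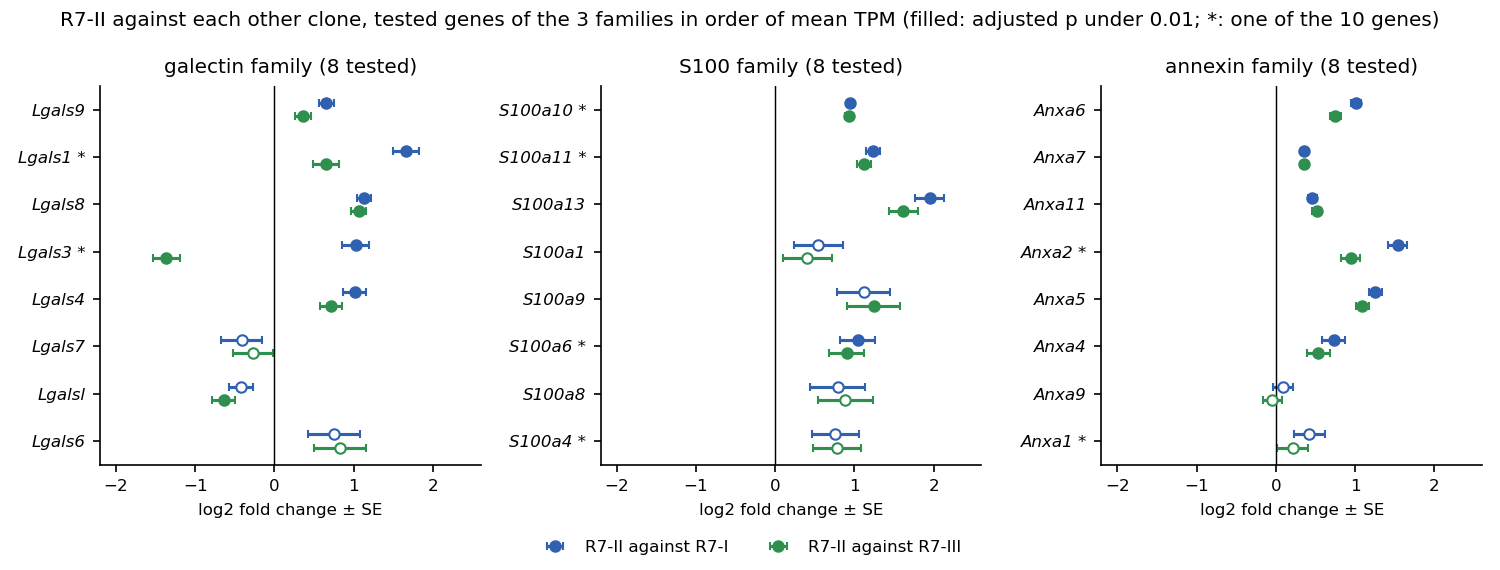
Log2 fold change ± standard error (horizontal axes, log2(TPM + 1) scale) of R7-II against R7-I (blue) and against R7-III (green) for the 8 tested genes of each family, ordered by mean TPM, n = 3 libraries per clone; filled points have an adjusted p under 0.01 and a star marks the genes of the main set. Lgals3 is the gene whose filled points lie on opposite sides of 0 (1.03 and -1.36).

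Known partners of these proteins were called in both directions, at shares to be read against the 40.6% higher and 15.5% lower of all genes against R7-I and the 35.6% and 18% against R7-III. Of 11 galectin ligands and glycan enzymes, 10 passed the filter, with 5 higher and 1 lower in R7-II than in R7-I, 6 higher and 2 lower against R7-III and 0 called with limma between R7-III and R7-I (1 had an unadjusted p under 0.05). Median log2 fold changes were 0.37, 0.29 and 0.09, beside 0.17, 0.12 and 0.04 over all genes. The most abundant, the CD45 gene Ptprc, had 524 ± 13.8, 648 ± 31.9 and 504 ± 11.5 TPM in R7-I, R7-II and R7-III (log2 fold changes of R7-II 0.30 and 0.36, adjusted p = 3.50e-05 and 1.14e-05). Spn, which encodes the sialoglycoprotein CD43, was at 219 ± 5.63, 298 ± 25.8 and 223 ± 8.60 TPM (0.44 and 0.42, adjusted p = 3.87e-05 and 6.45e-05). Cd44, the hyaluronan receptor of activated T cells, went the other way, with 174 ± 4.23, 77.7 ± 16.2 and 196 ± 2.22 TPM in R7-I, R7-II and R7-III and log2 fold changes of -1.17 and -1.35 (adjusted p = 6.64e-06 and 2.56e-06). The less abundant Cd7 had the largest change of this list. It was at 0.827 ± 0.155, 22.9 ± 5.73 and 1.01 ± 0.340 TPM (3.68 and 3.55, adjusted p = 9.69e-08 and 1.45e-07).

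Of 11 partners of S100 proteins and annexins, 6 passed the filter. In R7-II, 3 were higher and 2 lower than in R7-I and 3 higher and 1 lower than in R7-III. Fpr2, among the 3 higher in each comparison, passed the filter only through R7-II, which leaves 2 of 5 higher in each. In R7-III, 0 were higher and 1 was lower than in R7-I, beside 6.96% and 1.45% of all genes tested. The medians in the 3 comparisons were 0.57, 0.38 and -0.0031, beside 0.17, 0.12 and 0.04 over all genes. Myh9, the non-muscle myosin heavy chain that S100a4 binds, was at 238 ± 6.32, 424 ± 26.9 and 256 ± 4.33 TPM in R7-I, R7-II and R7-III (0.83 and 0.73, adjusted p = 1.07e-07 and 2.46e-07). The genes of the S100a6 binding proteins Cacybp and Sugt1 were at 249 ± 2.92, 192 ± 3.98 and 231 ± 4.88 TPM and at 103 ± 0.956, 94.8 ± 0.226 and 93.6 ± 1.64 TPM. Cacybp was lower in R7-II than in both clones (-0.38 and -0.27, adjusted p = 1.16e-06 and 1.35e-05). Sugt1 was lower in R7-II than in R7-I (-0.12, adjusted p = 0.00332), which did not hold without R7-I replicate 2 or 3 (0.0113 and 0.0137) or with only the clones compared (0.0105), and lower in R7-III than in R7-I (-0.14, adjusted p = 0.00773), which did not hold without R7-II replicate 3 or any 1 library of R7-I or R7-III (adjusted p between 0.012 and 0.0404), with no trend (0.0235) or with the replicate block (0.0214).

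Most other filament genes were below the filter. Of 13 further intermediate filament and lamin genes, 3 passed the filter (Lmnb1, Lmnb2 and Nefh), 2 were lower in R7-II than in either other clone, and 2 were higher in R7-III than in R7-I, with medians of -0.38, -0.61 and 0.22. Over all genes tested, 15.5% and 18% were lower in R7-II and 6.96% higher in R7-III than in R7-I. The medians over all genes were 0.17, 0.12 and 0.04. Lmnb1, which encodes lamin B1 of the nuclear lamina, was at 109 ± 3.37, 71.1 ± 2.83 and 135 ± 4.90 TPM in R7-I, R7-II and R7-III (-0.60, -0.92 and 0.31, adjusted p = 6.75e-07, 7.11e-08 and 6.57e-04). Nefh, a neurofilament gene, was at 42.0 ± 1.44, 32.2 ± 4.81 and 49.3 ± 0.908 TPM (-0.38 and -0.61, adjusted p = 0.00173 and 8.03e-05). Lmnb2, for lamin B2, was at 44.5 ± 1.41, 46.4 ± 0.468 and 50.9 ± 1.15 TPM, and its call between R7-III and R7-I (0.19, adjusted p = 0.00658) did not hold without R7-I replicate 1 or 2 or any 1 R7-III library (adjusted p between 0.0177 and 0.0356), nor with either other scaling, no trend or the replicate block (between 0.0128 and 0.0254). Lmna, for the A-type lamins, was below the filter, with means of 0.267, 0.910 and 0.717 TPM in R7-I, R7-II and R7-III, the same order of clones as Vim.

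Genes of other cell types were measured beside these results, since most of the 10 genes are abundant in myeloid cells. The sorted cells expressed the T lineage list throughout, with summed levels of 3054 to 3109 TPM in R7-I, 4126 to 4239 TPM in R7-II and 3184 to 3297 TPM in R7-III, and 9 and 8 of its 10 genes were higher in R7-II against R7-I and R7-III. Its most abundant genes, Lat and Lck, adaptor and kinase of TCR signalling, exceeded both other clones in R7-II (log2 fold changes between 0.33 and 0.45). After median-of-ratios scaling, Cd8a and Zap70 of this list no longer passed against R7-I (adjusted p = 0.0676 and 0.868). Against R7-III, Cd3e and Cd8a no longer passed (0.0207 and 0.452). Of 13 myeloid markers tested, R7-II had 9 called higher relative to R7-I and 11 relative to R7-III, but 7 of the 13 passed the filter only through R7-II, the clone where they are high. Of the other 6, 5 and 6 were called higher, beside 40.6% and 35.6% of all genes. The summed level was 95.9 to 106 TPM in R7-I, 138 to 219 TPM in R7-II and 93.4 to 101 TPM in R7-III. These counts depended on single libraries and on the scaling. Against R7-I they were 4 without R7-I replicate 1 and 5 without R7-I replicate 3 or R7-II replicate 3, and against R7-III they were 6 without R7-III replicate 1 or 2. With median-of-ratios scaling both counts were 7, and Cst3 passed in neither comparison (adjusted p = 0.353 and 0.058). With quantile normalization they were 2 and 6. Cst3 and Ctss, lysosomal genes that made up most of these sums, were at 61.16 to 70.54 and 26.57 to 30.87 TPM in R7-I and at 75.98 to 82.20 and 29.89 to 42.11 TPM in R7-II. Cd14, a monocyte marker, was at 0 in all R7-I libraries and between 0.41 and 2.32 TPM in R7-II. The lysozyme gene Lyz2 was at 0.25 to 0.65 TPM in R7-I, 13.80 to 56.74 TPM in R7-II and 1.57 to 2.43 TPM in R7-III. Its log2 fold changes of R7-II, 4.34 and 3.35 (adjusted p = 3.33e-06 and 2.15e-05), ranked 1 and 7 of the 11330 genes tested.

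Markers of B cells and MHC class II were higher in R7-II as well, in 9 of 9 and 7 of 7 tested genes of either comparison. Over all genes 40.6% and 35.6% were higher. Against R7-I, 5 MHC class II genes passed after median-of-ratios scaling, and 7 B cell and 5 MHC class II genes after quantile normalization. With a library left out these counts against R7-I were as low as 7 and 5. Against R7-III, 6 MHC class II genes passed after quantile normalization. Of the 9 and 7 tested genes, 4 B cell genes and 1 MHC class II gene passed the filter only through R7-II, which leaves 5 of 5 and 6 of 6. Their summed levels were 9.20 to 16.3 and 32.4 to 50.3 TPM in R7-I, 37.4 to 77.9 and 112 to 183 TPM in R7-II and 5.48 to 8.28 and 24.3 to 28.1 TPM in R7-III. The most abundant were Cd79b and Cd79a of the B cell receptor, at most at 25.41 and 19.22 TPM in R7-II, and Cd74 and H2-Aa, at most at 91.26 and 36.77 TPM. Of the dendritic cell list, 2 of 6 genes passed the filter, and Zbtb46 was lower in R7-II in both comparisons while Xcr1 did not pass. Of the CD4 T cell list, 2 of 4 were tested, with 0 called by limma against R7-I (1 had an unadjusted p under 0.05) and 1 higher and 1 lower against R7-III, and Cd4 stayed below the filter. Foxp3, the gene called higher, passed the filter only through R7-II, and the gene called lower was Cd40lg. Of the NK cell list only Eomes, which CD8 T cells also express, was tested. It did not pass (adjusted p = 0.0388 and 0.0454 for R7-II against R7-I and R7-III), but without R7-II replicate 3 it was lower in R7-II (adjusted p = 0.000158 and 0.000195). Of 6 erythroid genes tested, 1 was lower in R7-II than in R7-I, Hbb-b1, and globin paralogs such as Hba-a1 and Hba-a2 share reads. The part of other cells in the levels of the 10 genes was not tested.

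Within R7-II, the replicate with the highest level differed between the marker lists and between the 10 genes. Myeloid markers were highest in replicate 3 for 12 of 13 genes, and Lyz2, the lysozyme gene of macrophages and neutrophils, was at 28.23, 13.80 and 56.74 TPM in the 3 libraries. B cell markers were highest in replicate 1 for 9 of 9 genes, and MHC class II genes in replicate 1 for 4 and in replicate 3 for 3. Of the 10 genes, Lgals1, S100a6, S100a11, Anxa2 and Ahnak were highest in replicate 1, S100a10 and Vim in replicate 2, and Lgals3, S100a4 and Anxa1 in replicate 3. That places 8 of the 10 genes highest in replicate 1 or 3, the libraries where B cell or myeloid markers peaked. Only replicate 2 lies outside these, and the share of all genes highest in replicate 1 or 3 was not counted. The count can therefore not be read as a link between the genes and the markers. Replicate 2 was lowest in all 3 marker sums. Without R7-II replicate 3, where myeloid markers peaked, S100a4 and Anxa1 were no longer among the genes tested. All 8 of the 10 genes that were still tested were called in either comparison of R7-II. All 11217 genes then tested gave 4129 higher and 1614 lower against R7-I, and 3585 and 1869 against R7-III. Without replicate 1, where B cell markers peaked, the 10 genes gave 9 and 7. All 11261 genes then tested gave 4021 higher and 1619 lower against R7-I, and 3497 and 1894 against R7-III. The calls against R7-III include Lgals3, which was lower in both settings. Neither setting removed the markers. Lyz2 was still at 28.23 and 13.80 TPM in R7-II replicates 1 and 2, and the B cell sum at 37.4 and 60.0 TPM in replicates 2 and 3. The part of other cells in these calls was not tested.

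**Figure D4:**
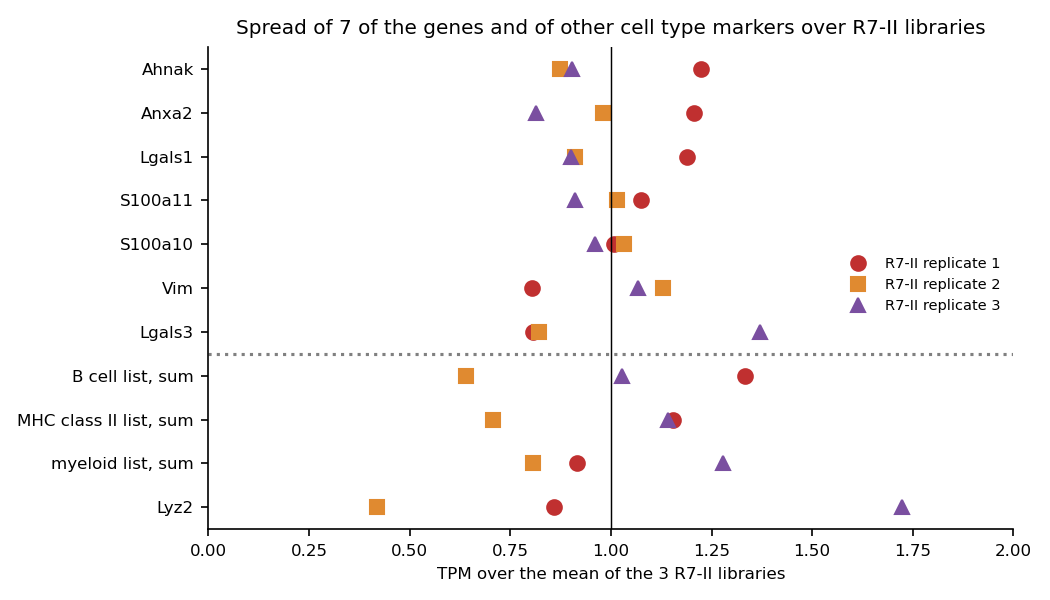
TPM divided by the mean of the 3 R7-II libraries (horizontal axis, linear from 0) for 7 of the 10 genes and, under the dotted line, for the summed marker lists and Lyz2; red circles, orange squares and purple triangles are R7-II replicates 1, 2 and 3. Ahnak, Anxa2 and Lgals1 are highest in replicate 1, while Lgals3, the myeloid sum and Lyz2 (56.74 TPM) are highest in replicate 3.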

How the data were processed

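RNA of sorted, peptide-activated CD8 T cells was sequenced in 9 libraries, 3 per clone. The authors aligned reads and estimated gene levels with RSEM 1.2.11 on RefSeq genes of mm10 and deposited TPM per gene symbol; the aligner behind RSEM is not given in these sources. The library kit kept no strand. The authors' DESeq2 1.8.1 test ran on counts, which were not used here. TPM values were instead tested as log2(TPM + 1) with limma 3.58.1 in R 4.3.3 (lmFit, eBayes with trend), all 9 libraries in 1 fit. The filter of a maximum TPM above 1 followed the study's, but was taken over these 9 libraries alone. The set of genes tested and adjusted over therefore differs from the study's. The threshold was the study's, 0.01 on Benjamini-Hochberg adjusted p. The code of the fit was run on simulated data with normal noise and a small set of genes changed in R7-II. Far fewer genes were changed there than were called here, so that run says nothing about the calls in these data. Tables were made with pandas 2.3.3 in Python 3.11.15.

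The 10 genes and all lists (galectin, S100 and annexin families, their partners, filament genes and cell type markers) were chosen with earlier results of these data known. All 10 genes are named, with the 3 most abundant others of each family and partner list and the 2 most abundant of each marker list. Lgalsl, Lgals6, S100a8, Fpr2, Foxp3, Cd3e, Cd7, Cd8a, Zap70, Cd14, Lyz2, Cd4 and Anxa9 were named after their values were seen. Positions and promoters are from RefSeq on GRCm38.p6, the build of mm10. Alternatives were other pseudocounts, filters, scalings (median-of-ratios, quantile), moderation and thresholds, only the clones compared, a replicate block, and each library left out in turn. Unstimulated samples were not analysed here.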

Additional observations from a re-analysis of the deposited data

How the results depend on the processing

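For the 10 genes, 582 values over 30 results and up to 20 alternatives kept their direction and their side of the threshold 530 times, no longer passed 45 times, newly passed 7 times and reversed 0 times while called. S100a4 and Anxa1 were not tested where R7-II replicate 3 was left out, and there is no value for genes below a stricter filter. The labels do not say whether same-numbered libraries of different clones belong together. Deviations of same-numbered libraries from their clone means correlated between -0.0449 and 0.0888, and the best match had the same number in 7 of 18 cases. These values cannot decide whether such libraries share a day or batch. With a replicate block, 8, 8 and 3 of the 10 genes were called in the 3 comparisons. The depth behind a TPM is unknown, so counting error at low levels (S100a4, S100a6, Anxa1) cannot be given.

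Called against R7-III, the 10 genes gave 8 in R7-II (7 higher and 1, Lgals3, lower) and 5 after quantile normalization, and 6 to 8 with a library left out. All genes gave 6077, 5602 after quantile normalization and 5113 to 6121 with a library left out. Between R7-III and R7-I the 10 genes gave 4, but 2 with no filter, median-of-ratios scaling, quantile normalization, no trend or robust moderation, and 1 to 5 with a library left out. All genes gave 953 there, 973 after median-of-ratios scaling, 682 after quantile normalization and 436 to 1120 with a library left out. Galectins called in R7-II against R7-III went from 6 (4 higher and 2 lower) to between 3 and 6 with a library left out. Between R7-III and R7-I they went from 2 to 1 with robust moderation and to between 1 and 3 with a library left out. S100 genes called in R7-II against R7-III went from 5 to 3 with the filter of 1 TPM in all libraries, with quantile normalization or with only the clones compared, and lay between 3 and 5 with a library left out. Of the 5, S100a6 and S100a9 had passed the filter only through R7-II. Annexins called between R7-III and R7-I went from 1 to 0 with a pseudocount of 5, no filter, median-of-ratios scaling, quantile normalization, no trend, robust moderation or the replicate block, to 2 at an adjusted p of 0.05 and to between 0 and 1 with a library left out. For the families outside the 10 genes, R7-II against R7-III gave 11 (10 higher and 1 lower) and between 7 and 11 with a library left out. There, R7-III against R7-I gave 0, 1 with only the clones compared or at 0.05, and between 0 and 1 with a library left out. Lmnb2 against R7-I became lower in R7-II (-0.13 by median-of-ratios scaling, -0.13 by quantile normalization, from 0.06), and Sugt1 against R7-III became lower by median-of-ratios scaling (-0.11, from 0.02). The cause was not tested.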
